A study of Homo sapiens with 4 samples.

Results

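The zinc finger genes of human chromosome 19 were followed in HCT116 cells, an epithelial line from a colorectal carcinoma, in which an shRNA against the long non-coding RNA N-BLR was expressed. Members were the non-control probes whose gene name starts with ZNF and a digit and whose position lies on chromosome 19 in the hg17 coordinates of the array files. The rule took 301 of the 41000 probes on the array, which stand for 192 genes. Of these, 101 probes (63 genes) lie on the p arm, the last of them ending at position 24102686, and 200 probes (129 genes) lie on the q arm, from position 35732177. All 301 probes were matched to a gene that RefSeq places on chromosome 19, 249 of them by accession, 46 by symbol and 6 by an older name.

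RNA of 2 stable shRNA lines, N-BLR shRNA #3-1 and N-BLR shRNA #4-7, was compared with RNA of HCT116 cells carrying the empty vector, on 2 arrays per line. Each line is 1 clone, here called clone 3-1 and clone 4-7, and the control is 1 sample that all 4 arrays share. The labels speak of biological replicates from lentiviral transduction, while the methods describe transfection and arrays in duplicate, so the p-values measure the spread between arrays, which may be technical. No probe is named N-BLR (0 probes), and the knockdown itself was not read.

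Most of these genes encode proteins with a KRAB domain followed by a row of C2H2 zinc fingers. The fingers bind DNA, often inside retroelements, and the KRAB domain recruits the corepressor TRIM28, which brings the histone methyltransferase SETDB1, HP1 proteins and DNA methyltransferases. The genes arose by repeated local duplication and stand in clusters on both arms, some of them expanded in primates.

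Ratios are given as the log2 of Cy5 over Cy3, where the labels put the clone in Cy5 and the control in Cy3 on every array, with no dye exchanged. For E-cadherin and vimentin this labelled direction is opposite to the direction the study gives. "Higher" and "lower" here therefore mean higher and lower in the channel labelled as the clone, also between the clones. The control RNA is the same on all 4 arrays. For genes named for their difference between the clones, Cy5 was nearly level over the arrays while Cy3 changed with the clone. ZNF580 read 13.10, 13.15, 13.12 and 13.17 in Cy5 (normalized log2, clone 3-1 first) and 12.49, 12.58, 13.60 and 13.61 in Cy3. Which channel holds the control was not tested. If it is Cy5, every direction given here is reversed. A probe was called when limma's moderated p was under 0.001, the unadjusted threshold of the methods. Adjusted p-values are Benjamini-Hochberg values of the same limma fit over all 41000 probes. Values after ± are standard errors of the fit.

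The arrays lay on 1 slide, clone 3-1 on the first pair of positions and clone 4-7 on the second, so position and clone cannot be told apart. Between 68.5% and 72.6% of probe spots were well above background in a channel. Of the 9 epithelial markers listed for HCT116 (EPCAM, KRT8, KRT18, KRT19, CDH1, CDX1, CDX2, VIL1 and LGALS4), 7 were well above background in both channels on all 4 arrays. Of 7 markers of blood, endothelial, stromal and liver cells, 2 were (CD3E and COL1A1). Duplicate arrays of the members had a median SD of 0.050 for clone 3-1 and of 0.041 for clone 4-7 on the log2 scale.

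The 2 arms differed in the letters before their transcription starts, which the choice of members did not use. RefSeq promoters of 300 bases (250 before and 50 after the start, GRCh38.p14) were at hand for 166 of the 192 genes, 59 on the p arm and 107 on the q arm. The word CCAAT, the binding word of NF-Y, was held on either strand by 48 of the 59 p arm promoters (81.4%) and by 37 of the 107 q arm promoters (34.6%). Among all 27305 promoters of the table the share was 35.7%. In the p arm promoters 83 matches read forward and 8 in reverse, at a median of 66.0 bases before the start. In the q arm promoters 32 read forward and 16 in reverse, at a median of 74.0 bases.

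A longer word showed the same division. The 10-letter word held by the most p arm promoters was TCCAATCAGG, which contains CCAAT. It was found in 34 of 59 p arm promoters (57.6%) and in 0 of 107 q arm promoters, against 0.388% of all promoters. The word held by the most q arm promoters, CTGGGAAATG, was found in 19 of 107 of them (17.8%) and in 0 of 59 on the p arm, against 0.509% of all. Both words were picked from these same promoters, so their shares are a description. Among ZNF genes of other chromosomes the words were found in 5.47% and 3.13% of 256 promoters.

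The word CCGGAAG, to which ETS factors bind, was common on both arms, in 22 p arm promoters (37.3%) and 47 q arm promoters (43.9%). It was found in 10.7% of all promoters, in 12.8% of the promoters of other chromosome 19 genes and in 32.4% of those of ZNF genes elsewhere. TATAAA was found in 3 member promoters (1.81%) against 12.0% of all. The E-box CAGGTG was found in 15.1% against 20.6%, and the NRF1-type word GCGCATGC in 4.82% against 3.27%. The median number of CpG dinucleotides was 14 on the p arm, 23 on the q arm and 14 over all promoters.

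The promoters below are the 250 bases before the start of genes on which the expression results turn, 5′ to 3′, with matches on either strand to 4 words in capitals: the NF-Y-type and ETS-type words, the latter reading CTTCCGG in reverse, and the 10-letter word of each arm. The E-box, TATAAA and NRF1-type words are not marked. On the p arm they are those of ZNF91 at chr19:23395472-23395721 (minus strand), ZNF101 at chr19:19668589-19668838 (plus strand), ZNF700 at chr19:11924857-11925106 (plus strand) and ZNF426 at chr19:9538646-9538895 (minus strand).
ZNF91: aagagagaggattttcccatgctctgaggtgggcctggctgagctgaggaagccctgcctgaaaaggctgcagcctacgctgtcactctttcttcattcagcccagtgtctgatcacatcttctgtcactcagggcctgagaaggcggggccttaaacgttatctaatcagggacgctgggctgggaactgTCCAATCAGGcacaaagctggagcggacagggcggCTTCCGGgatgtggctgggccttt
ZNF101: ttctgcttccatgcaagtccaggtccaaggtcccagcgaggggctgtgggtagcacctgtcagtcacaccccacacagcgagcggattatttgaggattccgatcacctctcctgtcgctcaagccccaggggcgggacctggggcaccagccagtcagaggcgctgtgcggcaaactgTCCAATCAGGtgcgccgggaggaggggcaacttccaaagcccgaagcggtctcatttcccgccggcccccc
ZNF700: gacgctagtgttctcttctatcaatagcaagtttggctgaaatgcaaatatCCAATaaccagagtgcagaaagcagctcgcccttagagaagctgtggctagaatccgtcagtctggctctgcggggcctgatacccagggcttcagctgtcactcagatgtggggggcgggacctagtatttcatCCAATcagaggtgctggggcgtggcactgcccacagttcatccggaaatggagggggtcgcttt
ZNF426: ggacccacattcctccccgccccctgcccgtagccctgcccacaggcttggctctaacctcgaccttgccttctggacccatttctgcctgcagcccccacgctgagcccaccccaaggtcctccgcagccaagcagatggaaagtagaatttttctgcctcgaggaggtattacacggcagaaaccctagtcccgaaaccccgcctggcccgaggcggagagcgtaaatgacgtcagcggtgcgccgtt

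ZNF91 and ZNF101 hold the p arm word 59 and 71 bases before the start, in the same reading direction. ZNF700 holds CCAAT at 199 and 64 bases, and ZNF426 holds none of the 4 words. On the q arm the members past 2-fold are shown, ZNF550 at chr19:57559864-57560113 (minus strand), ZNF264 at chr19:57191250-57191499 (plus strand), ZNF548 at chr19:57389604-57389853 (plus strand), ZNF544 at chr19:58228664-58228913 (plus strand) and ZNF112, which the array names ZNF228, at chr19:44356705-44356954 (minus strand).
ZNF550: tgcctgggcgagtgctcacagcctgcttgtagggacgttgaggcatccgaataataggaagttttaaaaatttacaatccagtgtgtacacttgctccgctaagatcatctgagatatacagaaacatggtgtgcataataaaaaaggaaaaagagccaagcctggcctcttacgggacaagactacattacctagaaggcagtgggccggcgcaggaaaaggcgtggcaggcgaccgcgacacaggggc
ZNF264: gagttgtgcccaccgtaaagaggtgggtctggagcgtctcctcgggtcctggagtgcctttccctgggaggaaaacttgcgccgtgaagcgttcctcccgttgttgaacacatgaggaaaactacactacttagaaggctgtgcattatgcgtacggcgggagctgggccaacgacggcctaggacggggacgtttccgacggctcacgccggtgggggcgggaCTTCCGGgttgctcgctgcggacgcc
ZNF548: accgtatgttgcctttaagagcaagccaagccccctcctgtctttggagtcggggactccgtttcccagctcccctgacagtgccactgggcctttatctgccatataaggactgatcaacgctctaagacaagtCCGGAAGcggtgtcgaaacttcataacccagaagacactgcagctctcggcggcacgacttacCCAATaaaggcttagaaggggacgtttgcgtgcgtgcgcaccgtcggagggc
ZNF544: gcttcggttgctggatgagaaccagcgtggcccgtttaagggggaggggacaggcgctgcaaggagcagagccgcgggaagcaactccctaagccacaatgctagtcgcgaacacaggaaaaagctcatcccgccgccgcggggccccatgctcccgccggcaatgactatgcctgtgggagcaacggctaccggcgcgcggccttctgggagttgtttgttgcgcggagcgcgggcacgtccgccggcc
ZNF112 (ZNF228): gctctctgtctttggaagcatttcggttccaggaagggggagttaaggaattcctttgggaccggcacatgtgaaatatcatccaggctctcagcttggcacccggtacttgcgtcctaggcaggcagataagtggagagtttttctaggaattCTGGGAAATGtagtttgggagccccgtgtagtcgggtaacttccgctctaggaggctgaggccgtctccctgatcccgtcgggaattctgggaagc

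In these q arm promoters ZNF264 holds CCGGAAG in reverse 26 bases before the start, ZNF548 holds CCGGAAG and CCAAT, and ZNF112 holds the q arm word. ZNF550 and ZNF544 hold none of the 4 words in the 250 bases shown, though with the 50 bases after the start included ZNF550 holds the ETS-type word and ZNF544 that word and CCAAT.

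Within the arms the words followed the clusters. A cluster here is a run of member probes with gaps under 1 Mb, and 10 of the 17 clusters held at least 5 probes and are described, 5 on each arm. On the p arm CCAAT was held by 17 of 18 promoters of cluster 3 and by 18 of 18 of cluster 5, but by 3 of 12 in cluster 2. On the q arm it was held by 3 of 20 promoters in cluster 10, 4 of 20 in cluster 13 and 5 of 19 in cluster 16, but by 23 of 39 in cluster 17, nearest the end of the arm.

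Expression of the members leaned to higher values in the channel labelled as the clones. In clone 3-1, 69 member probes were higher and 20 lower, 22.9% and 6.64% of the 301, where 16.3% and 16.4% of all 41000 probes were called (32.7% in either direction). In clone 4-7, 61 were higher and 24 lower, 20.3% and 7.97%, against 16.1% and 15.0% of all probes (31.1% in either direction). The shares of higher members were above those of all probes and the shares of lower members were below them in both clones. Over all members the median log2 ratio was 0.05 in both clones, against 0.01 over all probes in both.

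The lean lay mostly on the q arm. Of the 200 q arm probes, 54 were higher and 13 lower in clone 3-1 (27.0% and 6.50%), and 45 were higher and 16 lower in clone 4-7 (22.5% and 8.0%). Of the 101 p arm probes, 15 were higher and 7 lower in clone 3-1 (14.9% and 6.93%), and 16 were higher and 8 lower in clone 4-7 (15.8% and 7.92%). The p arm share of higher probes was thus close to that of all probes, and its share of lower probes was near that of the q arm.

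Median log2 ratios of the q arm members were 0.09 and 0.08 on the arrays of clone 3-1 and 0.05 and 0.09 on those of clone 4-7. The p arm medians were 0.02 and 0.02 in clone 3-1 and 0.01 and 0.02 in clone 4-7. The q arm median lay above the p arm median on each of the 4 arrays. Members are not replicates of a condition and the control is shared, so no test was made between the arms.

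**Figure D1:**
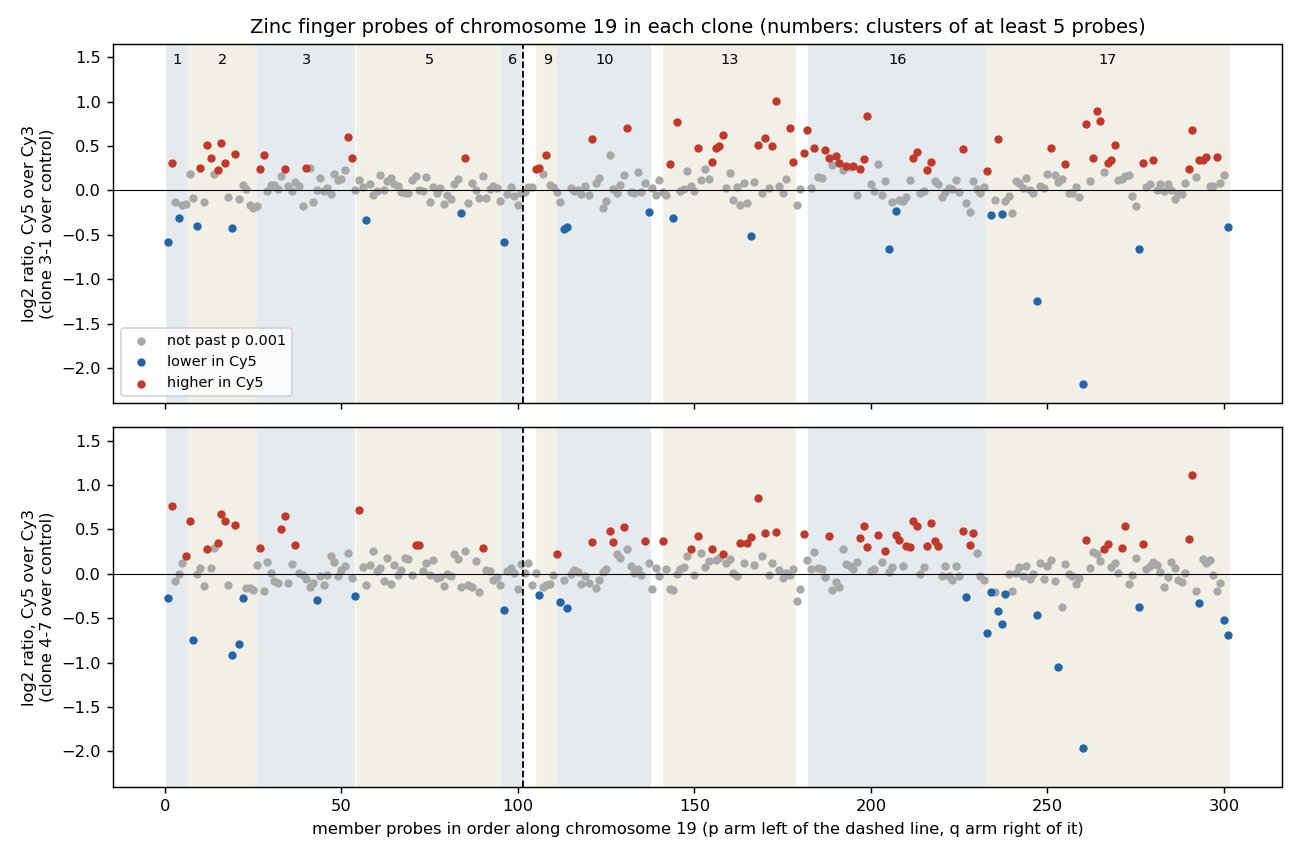
Log2 ratio of Cy5 over Cy3 (y axis, mean of 2 arrays) of the 301 member probes in their order along chromosome 19 (x axis), for clone 3-1 above and clone 4-7 below. Red and blue points are probes called higher and lower, grey points are not called, shaded bands are the 10 described clusters with their numbers and the dashed line divides the arms. Red points are denser right of the line, and in cluster 17 blue points are more numerous in clone 4-7 (12) than in clone 3-1 (6).

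Detection did not divide the arms. Of the p arm probes 72 (71.3%) and of the q arm probes 140 (70.0%) were detected, which here means that 1 channel or both stood well above background on all 4 arrays, near the 69.4% of all probes. Of the 89 other members, limma called 0 in either clone at p under 0.001, and 15 and 14 had an unadjusted p under 0.05 in clones 3-1 and 4-7. All called members were thus well above background. Among the 140 detected q arm probes the median log2 ratio was 0.16 in clone 3-1 and 0.12 in clone 4-7, and among the 72 detected p arm probes 0.02 and 0.07.

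Over all 28435 detected probes of the array 23.3% were higher and 23.1% lower in clone 3-1, and 23.1% and 21.2% in clone 4-7. Detected q arm members were higher in 38.6% and lower in 9.29% of cases in clone 3-1, and in 32.1% and 11.4% in clone 4-7. The detected p arm members were higher in 20.8% and 22.2% and lower in 9.72% and 11.1%. The base composition of the probes differs too: median GC content was 38.3% on the p arm, 40.0% on the q arm and 41.7% over all probes, and its part in the ratios was not tested.

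Among the 2030 other probes of the chromosome, lower calls outnumbered higher ones. Of the 1091 other probes of the q arm, 12.3% were higher and 16.8% lower in clone 3-1, and 12.0% and 14.7% in clone 4-7. For ZNF genes elsewhere higher calls outnumbered lower ones, as on the q arm: of 362 probes on other chromosomes, 26.5% were higher and 10.8% lower in clone 3-1, and 22.1% and 13.8% in clone 4-7, with medians of 0.07 and 0.04. By these shares, which include undetected probes, the q arm members lay nearer to the ZNF genes of other chromosomes than to the other q arm probes. Of the ZNF probes elsewhere, 86.5% were detected, against 70.0% of the q arm members. Among the detected ZNF probes elsewhere, 30.7% were higher and 12.5% lower in clone 3-1, and 25.6% and 16.0% in clone 4-7. The detected q arm members were higher more often, in 38.6% and 32.1%. The 19 chromosome 19 probes with other zinc finger names (such as ZFP) were higher in 0 cases, and 2 and 1 were lower in the clones. Only 6 of these 19 probes (31.6%) were detected, so few of them could be called.

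**Figure D2:**
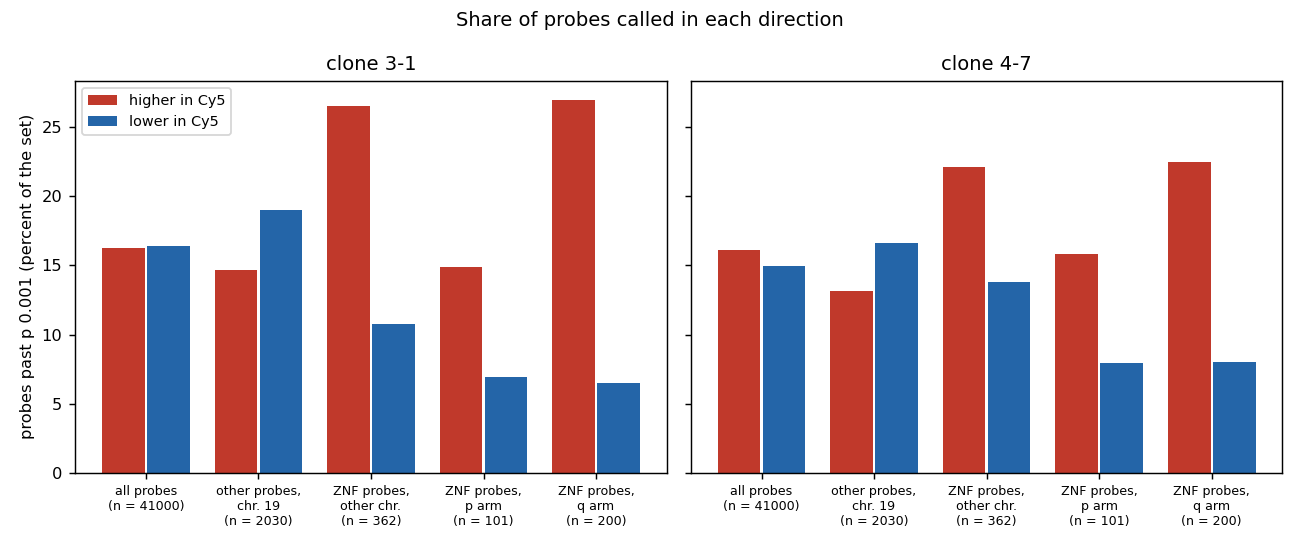
Percent of probes called higher (red) or lower (blue) in Cy5 at p under 0.001 (y axis) in clone 3-1 (left) and clone 4-7 (right), for all probes, the other probes of chromosome 19, ZNF probes of other chromosomes and the members of each arm, with n under each set. The red bar stands highest over the q arm members in both clones (27.0% and 22.5%), and the blue bars of the arms are between 6.50% and 8.0%.

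The q arm clusters did not behave alike. Cluster 13 (48.7 to 50.3 Mb, hg17), with 37 probes, held 13 higher and 2 lower in clone 3-1 and 10 higher and 0 lower in clone 4-7. Cluster 16 (56.8 to 58.8 Mb, 50 probes) held 15 higher and 2 lower, then 19 higher and 1 lower. Cluster 10 (41.4 to 42.9 Mb, 26 probes) held 2 higher and 3 lower, then 5 higher and 2 lower.

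Cluster 17 (60.7 to 63.7 Mb, 69 probes) was the cluster with the most member probes. It held 19 higher and 6 lower probes in clone 3-1 but 8 higher and 12 lower in clone 4-7, with medians of 0.08 and 0.00. The contrast of clone 3-1 minus clone 4-7 called 11 of its probes higher and 4 lower, 15.9% and 5.80%, against 11.0% and 11.6% of all probes. In the same contrast cluster 13 had 7 higher and 4 lower, and cluster 1 had 4 of its 6 lower. Cluster 9 had 3 of its 6 probes higher, all of them probes of ZNF302. The 86 other probes within cluster 17 were higher in 6 and lower in 6 cases in clone 3-1, and in 6 and 10 in clone 4-7. Without cluster 17 the q arm had 35 higher and 7 lower probes in clone 3-1 and 37 higher and 4 lower in clone 4-7, an alternative chosen after the data were seen.

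Neighbours inside the other clusters were mixed. The 42 other probes within cluster 13 were higher in 9 and lower in 7 cases in clone 3-1, and in 13 and 7 in clone 4-7. The 53 within cluster 16 were higher in 6 and lower in 6, then in 10 and 5. Cluster 9 (39.9 to 40.1 Mb) has 6 probes, 3 of them from ZNF302, a KRAB zinc finger gene, and its median was 0.12 in clone 3-1 and -0.12 in clone 4-7.

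On the p arm the largest cluster was the quietest. Cluster 5 (19.7 to 22.2 Mb, 41 probes of 21 genes), in the region of the primate-expanded zinc finger genes next to the centromere, held 1 higher and 2 lower probes in clone 3-1 and 4 higher and 0 lower in clone 4-7, and 24 of its probes (58.5%) were detected. Cluster 2 (7.0 to 9.6 Mb, 20 probes, 19 of them detected) held 7 higher and 2 lower, then 6 higher and 4 lower. Cluster 3 (11.5 to 12.5 Mb, 27 probes) held 6 higher and 0 lower, then 4 higher and 1 lower. The small clusters 1 (2.8 to 2.9 Mb) and 6 (23.3 to 24.1 Mb), of 6 probes each, held 1 higher and 2 lower, and 0 higher and 1 lower, in clone 3-1.

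Probes of duplicated genes can share letters, and with them signal. Of the 301 members, 38 share an exact run of at least 20 letters with a probe of another gene name, 12 share at least 30, and 0 share all 60. Of the 38, 24 lie on the p arm. Ratios of such genes, cluster 5 above all, are therefore less certain as those of a particular gene. With the 38 left out, 54 q arm probes were higher and 12 lower in clone 3-1 and 39 and 15 in clone 4-7, and on the p arm 13 and 5, then 13 and 7.

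In both clones 30 members were higher (9.97% of members against 7.78% of all probes) and 10 were lower (3.32% against 7.64%). Opposite calls were made for 6 members, where they took 3.60% of all probes. These 6 were probes of ZNF226, ZNF302, ZNF544, ZNF580, ZNF600 and ZNF628, all on the q arm, and 173 members were called in neither clone. The control RNA is common to both comparisons, so values of the clones are set side by side and no overlap is drawn from them.

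ZNF550, a KRAB zinc finger gene of cluster 17, was the member with the largest ratio. Its probe (19:62745065-62745124, hg17, minus strand) read -2.28 and -2.08 in clone 3-1 and -2.08 and -1.85 in clone 4-7. All 4 arrays were low, and Cy5 was not well above background on any, while Cy3 was on all. The fitted means were -2.18 and -1.97 (adjusted p 2.6e-05 and 4.0e-05, limma), with only a bound behind them. Set per channel, on a scaling of its own, the fold was at least 3.70 lower in Cy5 than in Cy3 for clone 4-7. The 4.91 that this scaling gave for clone 3-1 is past the fitted mean there, so that no minimum is given for clone 3-1. It is the only probe of the gene on the array.

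ZNF264, another KRAB gene of the same cluster, read -1.24 and -1.25 in clone 3-1 and -0.51 and -0.42 in clone 4-7. Both clones were lower, with means of -1.25 and -0.46, and the difference of -0.78 ± 0.05 was past the threshold (adjusted p 0.00027, limma). In each clone 1 member was called at least 2-fold higher and 2 at least 2-fold lower, where calls of that size in either direction took 2.12% of all probes in clone 3-1 and 1.71% in clone 4-7. For the difference between the clones 1 member passed 2-fold, against 2.48% of all probes.

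Other genes lower in both clones came from both arms. ZNF426, in cluster 2, read -0.43 on both arrays of clone 3-1 and -0.94 and -0.90 in clone 4-7. ZNF499, now ZBTB45, whose protein carries a BTB domain in place of KRAB, read -0.41 and -0.42, then -0.70 and -0.68. The ratios of both were lower in clone 4-7 than in clone 3-1, by differences of 0.49 ± 0.04 and 0.28 ± 0.04.

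ZNF91 binds and represses SVA retroelements in primates, and it was the largest change in cluster 6. Its log2 ratios were -0.58 and -0.58 in clone 3-1 and -0.42 and -0.39 in clone 4-7 (adjusted p 6.4e-05 and 0.0002, limma). ZNF554, in cluster 1, read -0.53 and -0.62, then -0.27 and -0.28. Differences between the clones did not pass for these genes, at -0.18 ± 0.04 and -0.30 ± 0.05.

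Among genes higher in both clones, ZNF112 (ZNF228 on the array), in cluster 13, reached 2-fold in clone 3-1. It read 0.95 and 1.06 in clone 3-1 and 0.48 and 0.47 in clone 4-7, with a difference of 0.53 ± 0.05 past the threshold (adjusted p 0.0011, limma). Its neighbour ZNF227 read 0.54 and 0.64, then 0.45 and 0.46. For ZNF227 the difference between the clones, 0.13 ± 0.05, was not called.

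ZNF480 in cluster 16 read 0.81 and 0.87 in clone 3-1 and 0.30 and 0.29 in clone 4-7, a called difference of 0.54 ± 0.04. ZNF416 in cluster 17 read 0.80 and 0.70, then 0.30 and 0.46. On the p arm ZNF266 (cluster 2) read 0.57 and 0.49, then 0.67 and 0.67, and ZNF555 (cluster 1) read 0.26 and 0.35, then 0.76 and 0.77. The clones differed for ZNF555 too, by a called difference of -0.46 ± 0.05, with the higher ratio in clone 4-7.

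**Figure D3:**
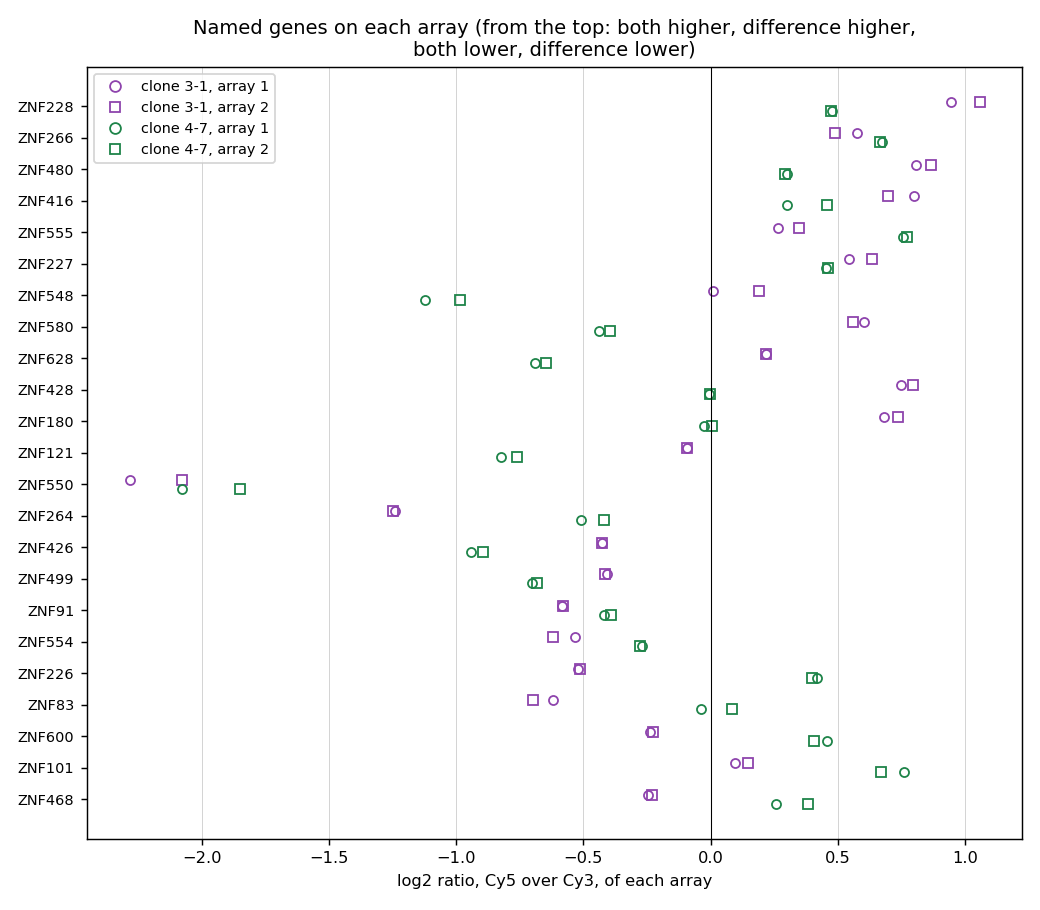
Log2 ratio of Cy5 over Cy3 (x axis) on each of the 4 arrays for the genes named by rule (y axis), from the top those higher in both clones, with the largest positive differences, lower in both, and with the largest negative differences, each gene by its brightest probe. Purple is clone 3-1 and green clone 4-7, with circles for array 1 and squares for array 2. Arrays of a clone lie close together, and ZNF550 lies furthest left, from -2.28 to -1.85.

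The clones differed for 60 members by the labelled channels. The ratio was higher in clone 3-1 than in clone 4-7 for 34 of them and lower for 26. These are 11.3% and 8.64% of the members, against 11.0% and 11.6% of all probes (22.6% in either direction). On the q arm 28 were higher and 16 lower (14% and 8.0%), on the p arm 6 and 10 (5.94% and 9.90%). Over the detected probes of the whole array the shares were 15.7% and 16.4%.

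ZNF548, a KRAB gene of cluster 17, gave the largest difference. It read 0.01 and 0.19 in clone 3-1 and -1.12 and -0.99 in clone 4-7, a difference of 1.15 ± 0.08 (adjusted p 0.00039, limma). Only clone 4-7 was lower for this probe. The other probe of the gene read 0.13 in clone 3-1 and -0.37 in clone 4-7, and its difference of 0.50 was not called.

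At the start of cluster 17 ZNF580 and ZNF628 were called in opposite directions. ZNF580 read 0.60 and 0.56 in clone 3-1 and -0.44 and -0.39 in clone 4-7, a difference of 1.00 ± 0.04. ZNF628 read 0.22 on both arrays of clone 3-1 and -0.69 and -0.65 in clone 4-7, a difference of 0.89 ± 0.04. Both were higher in clone 3-1 and lower in clone 4-7.

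In cluster 13 ZNF428 read 0.75 and 0.79 in clone 3-1 and values within 0.01 of 0 in clone 4-7, a difference of 0.78 ± 0.04. ZNF180 read 0.68 and 0.74, then -0.03 and 0.00, a difference of 0.72 ± 0.04. For these genes the call was made in clone 3-1 alone. In cluster 9 ZNF302 read 0.25 and 0.26 in clone 3-1 and -0.24 on both arrays of clone 4-7 with its brightest probe, and was called in opposite directions.

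Genes with the opposite difference included ZNF83 and ZNF600 of cluster 16. ZNF83 read -0.62 and -0.70 in clone 3-1 and -0.04 and 0.09 in clone 4-7, a difference of -0.68 ± 0.06. ZNF600 read -0.24 and -0.23, then 0.46 and 0.41, a difference of -0.67 ± 0.04. Lower calls in clone 3-1 were made for both, and a higher call in clone 4-7 for ZNF600.

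ZNF101, the largest difference on the p arm in this direction, read 0.10 and 0.15 in clone 3-1 and 0.76 and 0.67 in clone 4-7 (difference -0.59 ± 0.05). A probe that the array names ZNF468, whose accession RefSeq gives to ZNF761, read -0.25 and -0.23, then 0.26 and 0.38 (difference -0.56 ± 0.06). ZNF700, the largest change of cluster 3 in clone 4-7, read 0.24 and 0.24, then 0.66 and 0.64 (difference -0.41 ± 0.04). All 3 were called higher in clone 4-7, and ZNF700 also in clone 3-1.

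Largest changes of the remaining clusters were modest. In cluster 3 ZNF490 read 0.63 and 0.57 in clone 3-1, and in cluster 5 ZNF493 read 0.43 and 0.30 with its most changed probe. In cluster 10 ZNF527 read 0.77 and 0.64 in clone 3-1 and ZNF383 read 0.57 and 0.48 in clone 4-7. ZNF320, in cluster 16, read 0.54 and 0.64 in clone 4-7. Each of these values was called higher.

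Where a gene had several probes, they often did not give the same answer. Among the 78 genes with at least 2 member probes (187 probes), all probes were called in 1 direction for 10 genes in clone 3-1 and 6 in clone 4-7, and only some were called for 25 and 22. Probes with opposite calls were found for 3 genes in clone 3-1 (ZNF226, ZNF414 and ZNF587) and 4 in clone 4-7 (ZNF121, ZNF525, ZNF544 and ZNF587). For the difference between the clones ZNF544 alone had opposite calls.

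ZNF544, a KRAB gene of cluster 17, shows the spread. Its probe A_24_P324640 (19:63449583-63449925, hg17) read 0.68 and 0.67 in clone 3-1 and 1.09 and 1.14 in clone 4-7. Further downstream, A_23_P141856 (19:63466671-63466730) read 0.34 and 0.34, then -0.31 and -0.35. In clone 4-7 the upstream probe was higher and the downstream probe lower, each with both arrays on the same side of 0.

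For ZNF226 in cluster 13, probe A_23_P218434 (19:49371127-49371186) read -0.52 and -0.52 in clone 3-1 and 0.42 and 0.40 in clone 4-7, while A_23_P395555 (19:49373544-49373603) read 0.49 and 0.52, then 0.85 and 0.86. The clones take opposite signs on the former, a difference of -0.93 ± 0.04, and the same sign on the latter. A call for the gene in clone 3-1 thus depends on the probe.

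ZNF587 read -0.68 and -0.63 in clone 3-1 with A_23_P101281 and 0.26 and 0.35 with A_23_P388146, and the signs were alike in clone 4-7 (-0.38 and -0.37, then 0.34 and 0.32). ZNF121 read -0.82 and -0.76 in clone 4-7 with A_24_P935782 and 0.49 and 0.61 with A_23_P89960. With 1 probe a gene, the brightest, the q arm had 39 higher and 11 lower genes in clone 3-1 and 28 and 15 in clone 4-7. The p arm then had 9 and 7 in both clones.

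**Figure D4:**
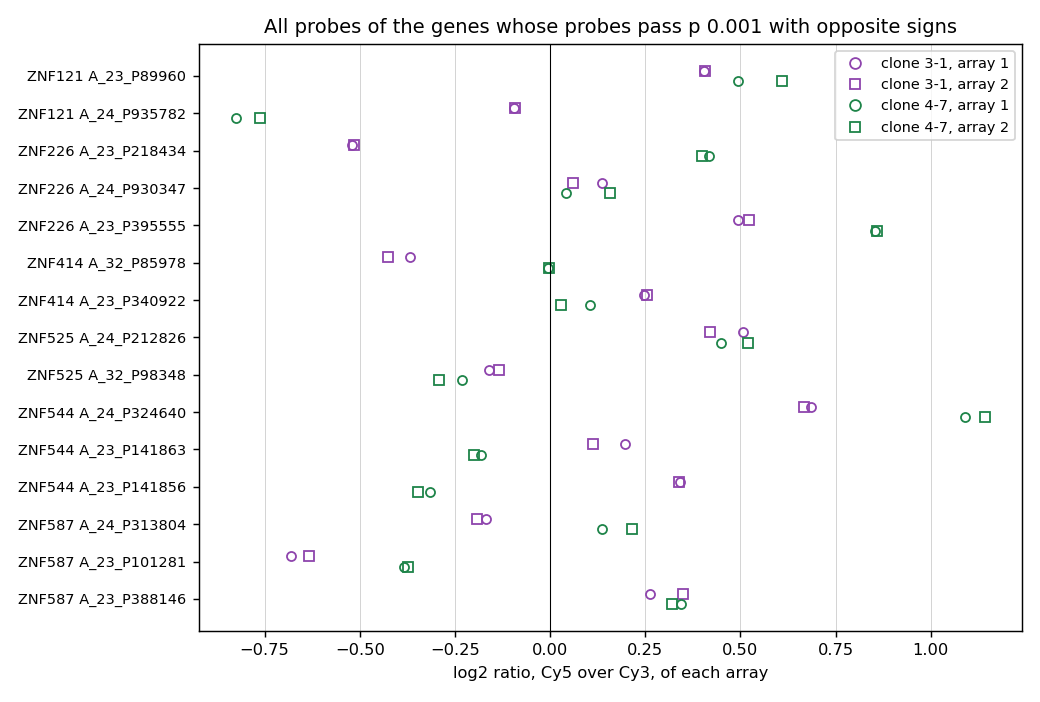
Log2 ratio of Cy5 over Cy3 (x axis) on each array for every probe of the 6 genes with opposite calls among their probes (y axis, gene and probe). Purple is clone 3-1 and green clone 4-7, with circles for array 1 and squares for array 2, and the line marks 0. Probes of ZNF544 range from -0.35 to 1.14, and for most probes the arrays of a clone lie close together.

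Members with a described function were followed whatever their values. ZNF274, which brings SETDB1 to the zinc finger genes themselves, was higher in both clones (0.23 and 0.25, then 0.38 and 0.41). ZNF473, part of the machinery that processes histone mRNA, was also higher in both, at 0.41 and 0.43, then 0.49 and 0.40. ZNF146, a protein made of zinc fingers without a KRAB domain, was lower in both at -0.43 and -0.39, then -0.43 and -0.35.

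Other such genes were called in 1 clone alone. ZNF350 (ZBRK1, a partner of BRCA1) was higher in clone 3-1, at 0.34 and 0.42, and read -0.10 and -0.09 in clone 4-7, a called difference of 0.48 ± 0.05. ZNF224, a repressor of the aldolase A gene, read -0.14 and -0.19 in clone 3-1 and was higher in clone 4-7, at 0.37 and 0.33, a called difference of -0.51 ± 0.04. ZNF8 and ZNF175, the latter known to act on the HIV promoter, were higher in clone 3-1, by 0.37 ± 0.03 and 0.48 ± 0.04, and ZNF444 was lower in clone 4-7, by -0.23 ± 0.03.

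The rest of this list was not called. ZNF93, which represses older LINE-1 elements, and ZNF43, ZNF382, ZNF420 and ZNF536 were not well above background in either channel with their brightest probes, and ZNF154 has no member probe (0 probes). ZNF331, an imprinted gene, read between -0.18 and 0.13 over the 4 arrays, and ZNF675, an inhibitor of TRAF6 signalling, between -0.09 and 0.07.

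The corepressor genes through which KRAB proteins act were read as a list of 19, of which 17 had a probe. With the brightest probe of each, 10 were higher and 1 lower in clone 3-1, and 8 were higher and 1 lower in clone 4-7, with median log2 ratios of 0.32 and 0.19 against 0.01 over all probes. Over all probes 16.3% were higher and 16.4% lower in clone 3-1, and 16.1% and 15.0% in clone 4-7. The brightest probes of the listed genes were all detected. Over the detected probes of the array the shares were 23.3% and 23.1% in clone 3-1, and 23.1% and 21.2% in clone 4-7. Lower calls were made for CHD3, a remodeller of the NuRD complex, in clone 3-1 (-0.30 and -0.33) and for ATRX, a chromatin remodeller, in clone 4-7 (-0.37 on both arrays). CBX3, an HP1 protein, read 0.83 and 0.85 in clone 3-1 and 1.08 and 1.12 in clone 4-7. UHRF1, which brings DNMT1 to hemimethylated DNA, read 1.16 and 1.22, then 0.35 and 0.30.

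TRIM28, the common partner of KRAB proteins, was higher in clone 3-1 (0.33 and 0.31) and not called in clone 4-7 (0.22 and 0.16). SETDB1 read -0.15 and -0.09, then -0.14 and -0.08 with its brightest probe, which was not called, and -0.40 on both arrays of clone 3-1 with its other probe, which was called lower there. MORC2 and DAXX were higher in both clones, by 0.55 and 0.71 and by 0.49 and 0.50. For CBX1, another HP1 protein, the brightest probe was higher in both clones (0.58 and 0.42) while its other 2 probes were lower in both (-0.51 and -0.32 each), so the call for that gene rests on the probe.

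The counts of called members depend on having 2 arrays a clone. Without array 1 or array 2 of clone 3-1 its called members number 49 or 44 in place of 89 and those for the difference 30 or 32 in place of 60. Without array 1 or array 2 of clone 4-7 the counts are 45 or 40 in place of 85, and 27 for the difference in both cases. In those fits the q arm still held more higher than lower calls, 32 and 6 or 29 and 7 in clone 3-1, and 25 and 8 or 18 and 9 in clone 4-7. Under other scalings the share of higher calls in clone 4-7, 71.8% of its called members, was 60.9% without normalization between arrays and 59.5% in the authors' table of ratios.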

How the data were processed

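RNA of each clone (Cy5 by the labels) and of the empty vector control (Cy3 by the labels) was hybridised to 4 Agilent 2-colour arrays with 60-base probes. The deposited scanner files hold spot intensity and local background intensity per channel, the intensity processed by Feature Extraction and its log10 ratio, as the authors' software wrote them (version 9.5.3.1 per the file headers, 8.5.1.1 in the submitters' processing notes). The authors' table of log10 ratios gave all 43376 values per array within 0.005 of the log10 ratio of the array with the same label, with column medians of 0, so its scale and direction are those of the scanner files.

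In R 4.3.3 with limma 3.58.1, intensities were background-corrected (normexp, offset 50), loess-normalized within arrays with control and outlier spots (87 to 125 per array) at weight 0, quantile-normalized between arrays and averaged over the spots of a probe. The log2 ratios, computed here from the deposited intensities, were fitted with 1 term per clone (lmFit, eBayes), over all 41000 probes. Tests of a ratio against 0 do not include the spread of the control, and precision is limited by how few arrays there are. Calls use p under 0.001.

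Where 1 channel was not well above background on either array of a clone, only a bound can be given. It sets the mean of the bright channel against a floor, which on each array is the dim signal or the lowest detected signal of that channel, whichever is higher, after loess and Aquantile normalization, which differs from the scaling of the fitted ratios. It is open to dye bias, since dyes were not exchanged.

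Members and lists were chosen with earlier results of these data known. Genes named were the 6 higher and 6 lower in both clones with the largest mean ratio, the 6 whose clones differed most in each direction, genes with a known role, the largest change in each described cluster and clone, and genes whose probes had opposite calls, each gene by its brightest probe unless another is named. Arms were divided at position 28000000 (hg17), within the gap between them. Promoters are those of RefSeq (GRCh38.p14), matched by the RefSeq gene that accession, symbol or older name gave the brightest probe. ZNF539 and ZNF254, both now ZNF254, share a promoter, which was counted for each name. The promoter counted for ZNF468 is that of ZNF761. The fit was tested on simulated data. The alternatives tried are background correction, normalization, the authors' table, filters, thresholds, single arrays left out and a replicate block. No genome sequence was used here, and probe positions are those of the files. The count of value columns left unused is 0.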

Additional observations from a re-analysis of the deposited data

Results flagged for a closer look

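Of the probes chosen by the rules for named genes, 29 differed between the clones at limma p under 0.001. They are listed here with the difference in log2 ratio of clone 3-1 minus clone 4-7, by the labelled channels. The signs reverse if the control lies in Cy5, which was not tested. Position on the slide cannot be told apart from clone, and its part was not tested. Groups of 2 arrays were not tested for single outlying arrays.

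Probes with the higher ratio in clone 3-1 were found mostly on the q arm. In cluster 17 the differences were 1.15 for ZNF548, 1.00 for ZNF580, 0.89 for ZNF628, 0.28 for ZNF499, and 0.67 and 0.35 for the downstream probes of ZNF544. In cluster 13 they were 0.78 for ZNF428, 0.72 for ZNF180 and 0.53 for ZNF228, now ZNF112. In clusters 9, 10 and 16 they were 0.53 and 0.49 for ZNF302, 0.43 for ZNF527, 0.54 for ZNF480 and 0.48 for ZNF350. On the p arm they were 0.70 for ZNF121 and 0.49 for ZNF426, both in cluster 2.

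Probes with a lower ratio in clone 3-1 than in clone 4-7 came from both arms. In cluster 13 the differences were -0.93 and -0.35 for probes of ZNF226 and -0.51 for ZNF224. In cluster 16 they were -0.68 for ZNF83, -0.67 for ZNF600 and -0.56 for the probe named ZNF468, and in cluster 17 -0.78 for ZNF264, -0.44 for the upstream probe of ZNF544 and -0.36 for a probe of ZNF587. On the p arm they were -0.59 for ZNF101, -0.46 for ZNF555, -0.41 for ZNF700 and -0.39 for a probe of ZNF414.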

How the results depend on the processing

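No named value past the threshold changed sign under the alternatives run. The counts of called members in clone 3-1, clone 4-7 and the difference were 89, 85 and 60. They were 46, 38 and 19 with normexp offset 0, 34, 30 and 15 with plain background subtraction, 51, 46 and 27 with the Feature Extraction signals, and 49, 42 and 31 in the authors' table. With Benjamini-Hochberg adjusted p under 0.05 they were 148, 155 and 126, and with an intensity trend the difference had 101.

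Median log2 ratios of the p arm (clones 3-1 and 4-7), then of the q arm, were 0.022, 0.013, 0.071 and 0.059. They were 0.027, 0.034, 0.128 and 0.111 with offset 0, 0.030, 0.033, 0.176 and 0.158 with plain subtraction, and 0.020, 0.066, 0.161 and 0.119 over detected probes. With the Feature Extraction signals the p arm had -0.021 and -0.037 and the q arm 0.155 in clone 3-1. In the authors' table the medians were 0.0, 0.0, 0.155 and 0.084. With 1 probe a gene they were 0.00028 and -0.00057 on the p arm and 0.062 on the q arm in clone 3-1. Median centring gave 0.015 for the p arm in clone 3-1, and no normalization between arrays 0.024 and -0.012. The p arm medians thus took either sign, while those of the q arm stayed above 0 in these settings.

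Chosen after seeing the data, leaving out probes with shared letters gave 0.039 and -0.00057 on the p arm and 0.079 on the q arm in clone 3-1, and leaving out cluster 17 gave 0.062 there. Leaving out single arrays gave 44 to 74, 40 to 74 and 27 to 32 called members, p arm medians of 0.018 to 0.022 and 0.011 to 0.016, and q arm medians of 0.071 to 0.092 and 0.052 to 0.085. Plain subtraction gave no value for ZNF420 in clone 3-1. Of 107 named values past the threshold, 45 were past it under every alternative run.

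Array numbers did not pair the samples: over all probes the replicate deviations of the clones had a correlation of -0.013, and over members 0.159. With the replicate number as a block, 75, 71 and 45 members were called, and the medians were the same. The causes of these shifts were not tested. Signal over background limits 89 members, for which no call was made.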
